A study of Mus musculus with 28 samples.

Results

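The genes described here encode the proteasome, its regulators and its assembly factors in mouse ventricular myocardium. They were chosen by symbol alone, as the gene rows named Psm, a letter from a to g and a number, which gave 48 of the 45513 gene rows. No measured value entered the choice. Of the 48 genes, 47 passed the filter on low counts, which required about 10 counts in as many libraries as the smallest group holds. The gene left out was Psmb11, a subunit of the thymus proteasome, which had at most 8 counts in any library and a count above 0 in 11 libraries.

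The proteasome is the protease that degrades most short-lived and damaged proteins of the cytosol and nucleus after they are tagged with ubiquitin. Its core particle (20S) is a barrel of alpha rings, which gate the entrance, and beta rings, which hold the proteolytic sites, and it is capped by a regulatory particle (19S) that binds, unfolds and deubiquitinates substrates. In cells exposed to interferon gamma, and constitutively in many leukocytes, Psmb8, Psmb9 and Psmb10 replace the constitutive catalytic subunits Psmb5, Psmb6 and Psmb7 to form the immunoproteasome, which favours peptides that MHC class I can present. In the heart the system turns over sarcomere and mitochondrial proteins.

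The study asked, by its title, how colonization with the oxalate-degrading gut bacterium Oxalobacter formigenes (Oxf) bears on chronic kidney disease (CKD) and the remodelling of the heart in it. All mice were adult C57BL/6 males on a diet with 1% hydroxyproline, an oxalate precursor, and 0.5% calcium, and they had surgery at 6 weeks of age. CKD mice lost most renal tissue in a staged 5/6 nephrectomy and controls had a sham operation. On day 7 each mouse received a single oral dose of Oxf in culture medium or the medium alone (vehicle). Sham-vehicle mice had sham surgery and medium (10 libraries), CKD-vehicle mice nephrectomy and medium (6), sham-Oxf mice sham surgery and Oxf (5) and CKD-Oxf mice nephrectomy and Oxf (7). The planned number was 10 mice per group, and the other mice were not analysed here. At collection the mice were anesthetized with ketamine and xylazine and perfused with PBS, and the interval from gavage to collection is not given in the sources used here. Each library is the heart of 1 mouse. Because the tissue is a mixture of cells, fewer cells of a type and less RNA per cell cannot be told apart.

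The libraries held 19798965 to 65378162 gene counts, and the proteasome genes together took 20538 to 77781 counts in each. The sham-Oxf library of replicate 1 stood apart: it had the lowest depth and listed 15879 genes with a count, against 27128 or more in each of the other libraries. The next library by depth, sham-vehicle replicate 2 with 22299166 counts, listed 31238 genes. In sham-Oxf replicate 1, 4 proteasome genes were listed at 0, namely Psmb9, Psma8, Psmb11 and Psmg4, where the other 27 libraries listed at most 1. The share of 7SL RNA, the RNA part of the particle that directs secreted proteins to the membrane, lay between 1.83% and 20.98%. Cardiomyocyte transcripts were abundant in every library, with Myh6, the main myosin heavy chain of the adult mouse heart, at 11280 to 29660 CPM (counts scaled to a common library size, with TMM factors). Atrial transcripts varied widely, with a summed level of Myl7, Sln, Myl4 and Bmp10 between 15.6 and 1689 CPM.

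Per kilobase of exon, the activator Psme4, which caps the core particle without using ubiquitin, had the highest mean level of the family over the 28 libraries, 23.1 ± 5.58 CPM per kilobase (SD, n = 28). The constitutive catalytic subunit Psmb5 followed at 17.99 ± 9.80, the 19S ATPases Psmc5 and Psmc3 at 16.7 ± 4.23 and 16.6 ± 6.49, and the catalytic subunit Psmb6 at 14.7 ± 7.70 CPM per kilobase. These neighbours differed by less than their spread over libraries. The alpha ring genes Psma1 to Psma7 ranged from 5.14 (Psma2) to 12.9 (Psma6) CPM per kilobase, and the structural beta genes Psmb1 to Psmb4 from 5.35 (Psmb1) to 10.9 (Psmb2). Among the 11 non-ATPase subunits of the 19S particle the range was 4.70 (Psmd13) to 14.3 (Psmd2) CPM per kilobase. Of the immunoproteasome genes, Psmb8 had 2.51 ± 0.646 and Psmb9 1.63 ± 0.594 CPM per kilobase, below every core and 19S subunit just named. Psmb10, at 7.00 ± 1.87, lay among those subunits and above its constitutive partner Psmb7, which had 3.84 ± 1.201 CPM per kilobase.

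Assembly factors lay at the low end, as 0.586 (Psmg3) to 3.56 (Psmg1) CPM per kilobase for the 4 chaperones that build the core particle and 0.851 (Psmd9) to 1.26 (Psmd10) for the 3 that build the base of the 19S particle. Psmf1, which encodes the inhibitor PI31, had 1.72 CPM per kilobase. Psma8, an alpha subunit of the testis, had 0 to 36 counts per library. The lengths are those of all annotated exons joined, so a gene with long rare exons is placed too low. Psme2 has a near-identical copy, Psme2b, which was given 31.2% to 89.8% as many counts as Psme2 in a library, so the level of Psme2 depends on how shared reads were counted. Exons of Psmb9 overlap those of Tap1 on the other strand by 212 bases, and those of Psmb8 and Psmb7 overlap Gm20496 and Nek6 on the other strand by 498 and 405 bases. The use of strand in counting is not given in the sources used here, so those reads cannot be assigned with certainty.

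**Figure D1:**
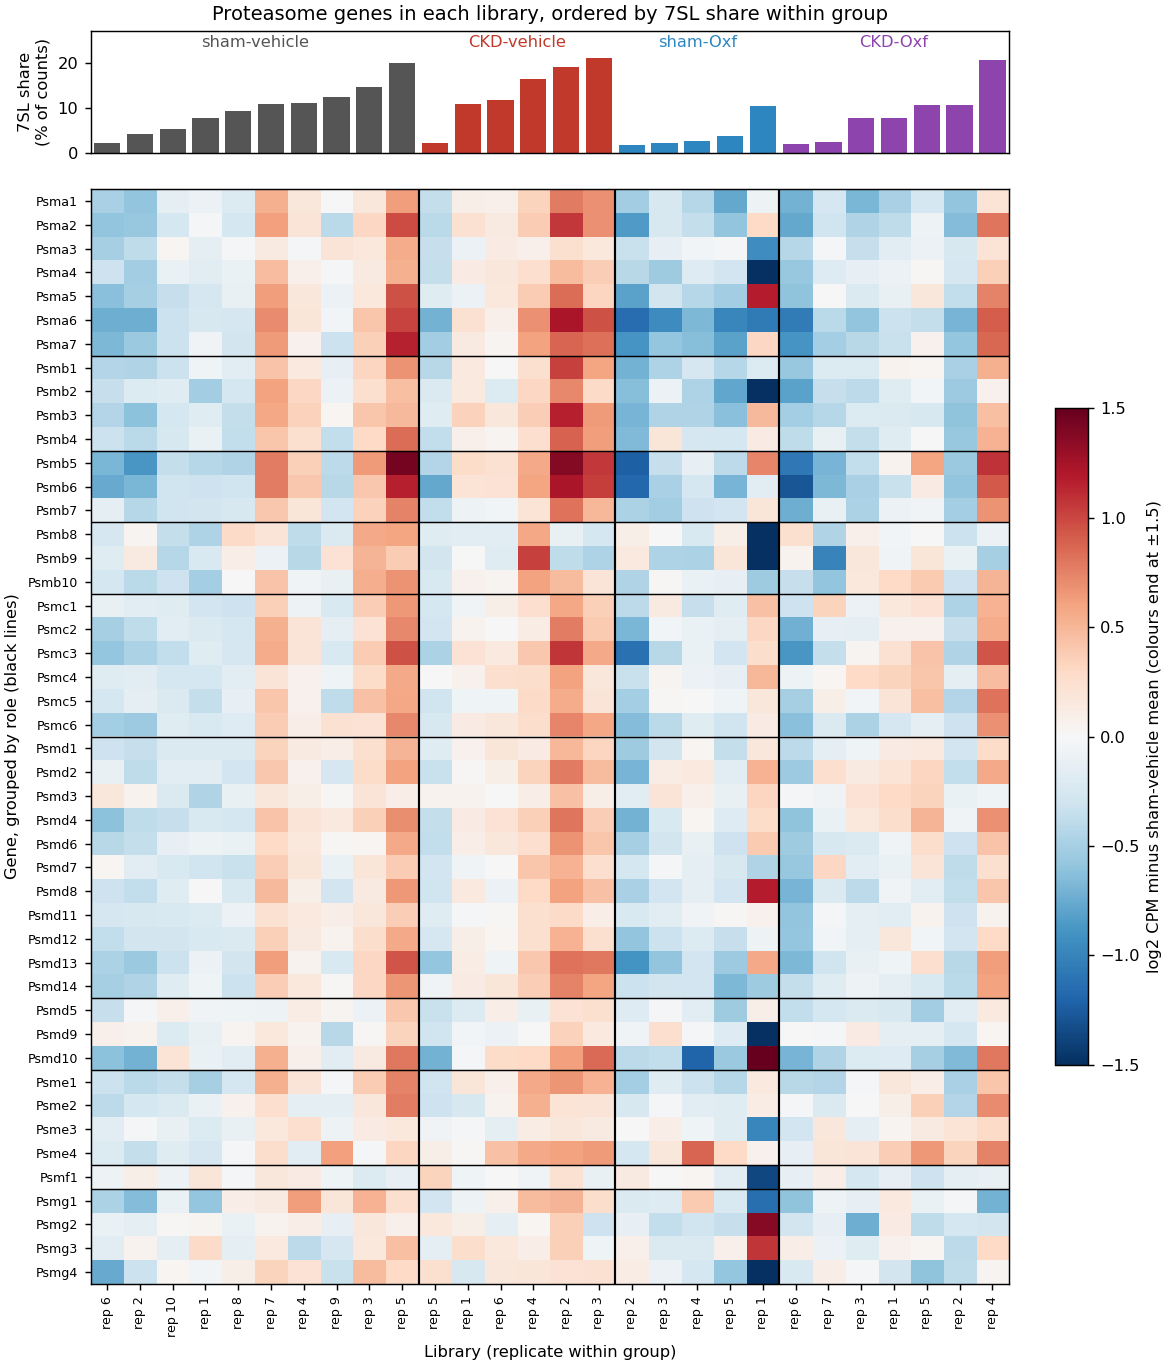
Top, share of 7SL RNA in the counts of each library (percent), with the libraries of each group in rising order. Below, log2 CPM of 46 proteasome genes (all but Psma8 and Psmb11) in the same libraries, each minus its sham-vehicle mean, with lines between roles and groups. Most core and 19S genes run from blue to red with the 7SL share in the vehicle groups. In sham-Oxf hearts the library means of the alpha ring (-0.71 to -0.25) and structural beta genes (-0.68 to -0.21) stay below 0. Those of the catalytic genes (-0.96 to 0.25) and ATPases (-0.62 to 0.30) do not. In CKD-Oxf hearts the alpha ring mean is 0.58 in replicate 4, with the highest share, and -0.48 in replicate 2, at a share of 10.6%. The rows of Psmb8 and Psmb9, with slopes of 0.02 and -0.00 on the share, do not follow it. Sham-Oxf replicate 1 has several cells at the ends of the scale.

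Several genes of the core particle were lower in hearts of mice given Oxf. With the gavage difference averaged over both surgeries, 3 genes fell at an adjusted p under 0.05 and all 3 are core subunits: the alpha ring genes Psma6 and Psma1 and the structural beta gene Psmb2. No proteasome gene rose. These 3 of 47 compare with a background in which 2.81% of the 24273 genes tested were called in either direction and 1.54% were called lower. At an unadjusted p under 0.05, 16 of the 47 were lower and none higher, against 11.5% of all genes tested lower. Of the 47 fold changes 44 were below 0, with a median of -0.23 on the log2 scale, where 12040 of all 24273 genes were below 0 with a median of 0.00.

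Psma6 encodes an alpha ring subunit and lies at chr12:55384222-55418454 on the plus strand (GRCm38). Its level had a lowest, median and highest value of 9.48, 14.4 and 32.1 CPM in sham-vehicle hearts, 9.69, 22.1 and 37.0 in CKD-vehicle hearts and 7.61, 11.98 and 29.7 in CKD-Oxf hearts. The 5 sham-Oxf hearts had 7.54, 7.12, 8.18, 9.92 and 7.99 CPM. The sham-Oxf hearts thus lay at or below the lower end of the vehicle hearts, and among CKD-Oxf hearts replicate 4 was far above the rest. With Oxf the level fell by 0.92 on the log2 scale (SE 0.22, edgeR adjusted p = 0.0305). The log2 fold change was -0.40 with the log2 7SL share as a covariate (edgeR adjusted p = 0.219) and -0.65 with a score of circadian clock genes as a covariate (edgeR adjusted p = 0.716). The adjusted p was 0.057 with no filter on low counts, and leaving out single libraries ended the call in 5 of 28 cases (0.00238 to 0.0672).

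Psma1, the second alpha ring gene, lies at chr7:114264606-114276118 on the minus strand. It measured 12.1, 17.7 and 28.3 CPM (lowest, median, highest) in sham-vehicle hearts, 14.2, 21.1 and 31.2 in CKD-vehicle hearts and 11.1, 13.04 and 21.1 in CKD-Oxf hearts, and 17.4, 12.7, 15.4, 13.5 and 10.7 CPM in the 5 sham-Oxf hearts. All 4 groups overlapped. Its log2 fold change with Oxf was -0.56 (SE 0.14, edgeR adjusted p = 0.0351), against -0.28 with the 7SL covariate (edgeR adjusted p = 0.227) and -0.37 with the clock covariate (edgeR adjusted p = 0.736). With 1 library left out the call was lost in 11 of 28 fits (edgeR adjusted p from 0.00411 to 0.0735).

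Psmb2 encodes a structural beta subunit at chr4:126677630-126709714 on the plus strand. Sham-vehicle hearts had 9.74, 12.8 and 21.3 CPM, CKD-vehicle hearts 12.1, 16.3 and 23.2 and CKD-Oxf hearts 8.03, 11.02 and 14.7, again as lowest, median and highest, and the sham-Oxf hearts had 4.55, 8.94, 13.1, 10.2 and 8.12 CPM. The lowest of these, 4.55 CPM, was sham-Oxf replicate 1, and the groups overlapped. The log2 fold change with Oxf was -0.59 (SE 0.15, edgeR adjusted p = 0.0351). It was -0.42 with the 7SL covariate (edgeR adjusted p = 0.187) and -0.51 with the clock covariate (edgeR adjusted p = 0.673), and the adjusted p was 0.0507 with no filter on low counts. The call was lost in 11 of the 28 fits without 1 library (edgeR adjusted p from 0.00685 to 0.0718), though not in the fit without sham-Oxf replicate 1 (0.0418).

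**Figure D2:**
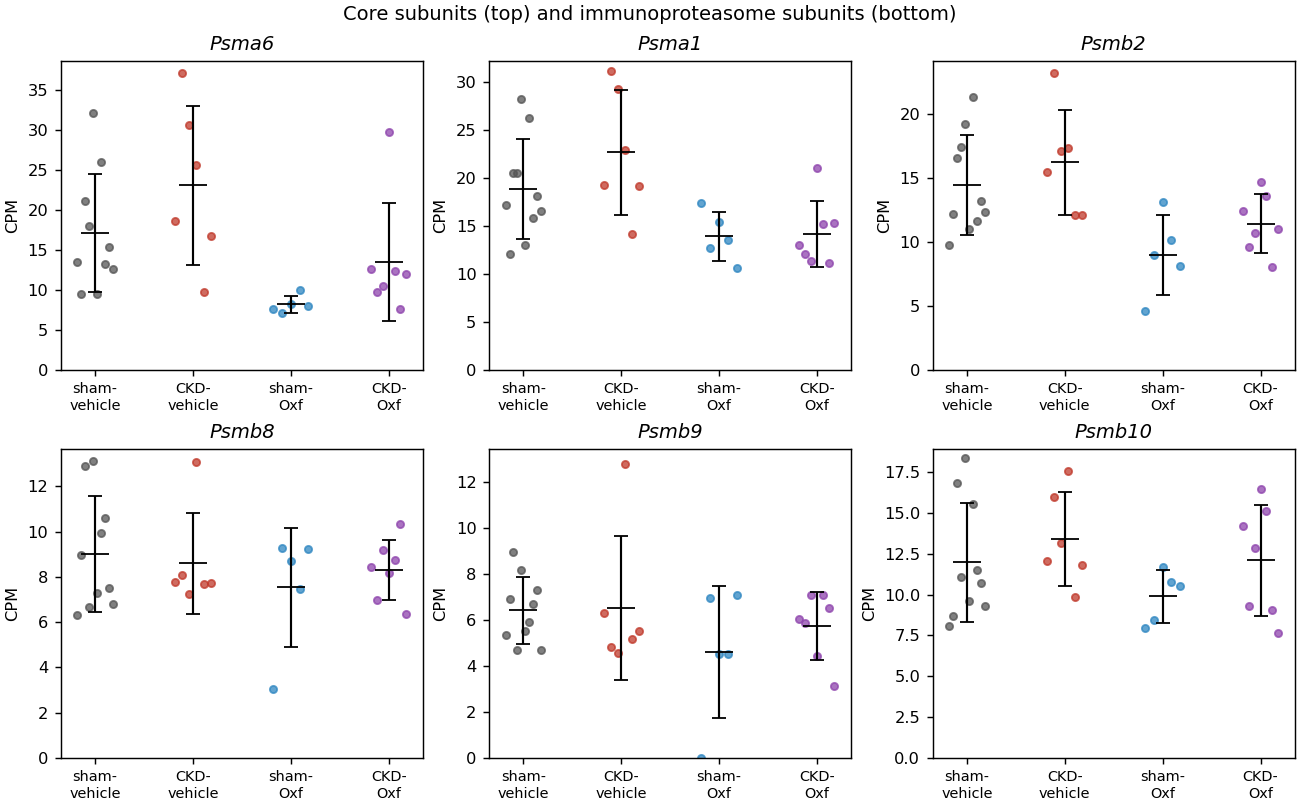
Level in CPM of 3 core subunits (top) and the 3 immunoproteasome subunits (bottom), 1 point per library, with the group mean and SD as a line and bars. The means of the Oxf groups lie lower in the top row, but points of the groups overlap in both rows. CKD-Oxf replicate 4 stands at 29.7 CPM for Psma6, and 1 sham-Oxf library stands at 0 for Psmb9.

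The other core subunits lay on the same side of 0 without passing the adjusted threshold. All 14 constitutive core genes had a fold change below 0 with Oxf averaged over surgery, with a median of -0.47 on the log2 scale, and 12 of them had an unadjusted p under 0.05. By role, the median was -0.49 for the 7 alpha ring genes, -0.48 for the 4 structural beta genes and -0.46 for the 3 constitutive catalytic genes. The catalytic gene Psmb6 (caspase-like site) had a log2 fold change of -0.69 (SE 0.24, edgeR adjusted p = 0.0882), Psmb5 (chymotrypsin-like site) one of -0.46 (SE 0.27, edgeR adjusted p = 0.312) and Psmb7 (trypsin-like site) one of -0.33 (SE 0.16, edgeR adjusted p = 0.201).

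Values of the catalytic genes spread widely within each group. Psmb5 ranged from 7.59 to 37.7 CPM in sham-vehicle hearts (median 10.7), from 10.3 to 36.3 in CKD-vehicle hearts (18.8) and from 6.60 to 29.7 in CKD-Oxf hearts (10.8), and the 5 sham-Oxf hearts had 23.2, 5.94, 10.98, 12.8 and 10.6 CPM. Psmb6 ranged from 15.5 to 58.9 CPM (median 21.2) in sham-vehicle, from 15.4 to 61.2 (34.9) in CKD-vehicle and from 10.7 to 49.6 (18.6) in CKD-Oxf hearts, with 23.48, 11.48, 18.6, 21.8 and 16.1 in sham-Oxf hearts. For both genes the top libraries were the same ones, sham-vehicle replicate 5, CKD-vehicle replicates 2 and 3 and CKD-Oxf replicate 4. Psmb7 was steadier, at 9.72 to 22.0 CPM (median 11.5) in sham-vehicle, 10.1 to 23.2 (14.0) in CKD-vehicle and 7.90 to 21.01 (12.2) in CKD-Oxf hearts, and 14.9, 9.43, 9.16, 10.6 and 10.8 in sham-Oxf hearts.

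The 19S particle, the activators and the assembly factors had medians nearer to 0, and none of them was called. The 17 subunits of the 19S particle had a median log2 fold change of -0.21 with Oxf averaged over surgery, 16 of 17 were below 0 and 3 had an unadjusted p under 0.05. The nearest to the threshold was Psmd14, the deubiquitinase of the lid, at -0.44 (SE 0.13, edgeR adjusted p = 0.0521), and the one subunit above 0 was Psmd3 at 0.02. The median was -0.14 for the 6 ATPases, -0.15 for the 3 base chaperones and -0.18 for the 4 core chaperones, and the inhibitor Psmf1 had -0.19. Whether the core and the 19S genes differ from each other in their response was not tested.

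The activators lay on both sides of 0. Psme1, which with Psme2 forms the interferon-inducible PA28 cap, had 20.8, 26.7 and 49.1 CPM (lowest, median, highest) in sham-vehicle, 23.9, 37.6 and 46.2 in CKD-vehicle and 20.96, 29.03 and 38.9 in CKD-Oxf hearts, and 32.4, 20.6, 25.7, 23.4 and 21.7 CPM in sham-Oxf hearts. Its log2 fold change with Oxf averaged over surgery was -0.34 (SE 0.14, edgeR adjusted p = 0.145). Its partner Psme2 ranged over 8.48 to 19.02, 8.98 to 16.1 and 8.18 to 18.2 CPM in the same 3 groups and over 9.39 to 12.1 CPM in sham-Oxf hearts, with a log2 fold change of -0.06 (SE 0.13, edgeR adjusted p = 0.828). Psme4 had 127, 153 and 249 CPM in sham-vehicle, 165, 232 and 254 in CKD-vehicle and 149, 205 and 273 in CKD-Oxf hearts, and 170, 135, 183, 299 and 200 in sham-Oxf hearts, with a log2 fold change of 0.10 (SE 0.12, edgeR adjusted p = 0.698). The groups overlapped for all 3 genes.

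**Figure D3:**
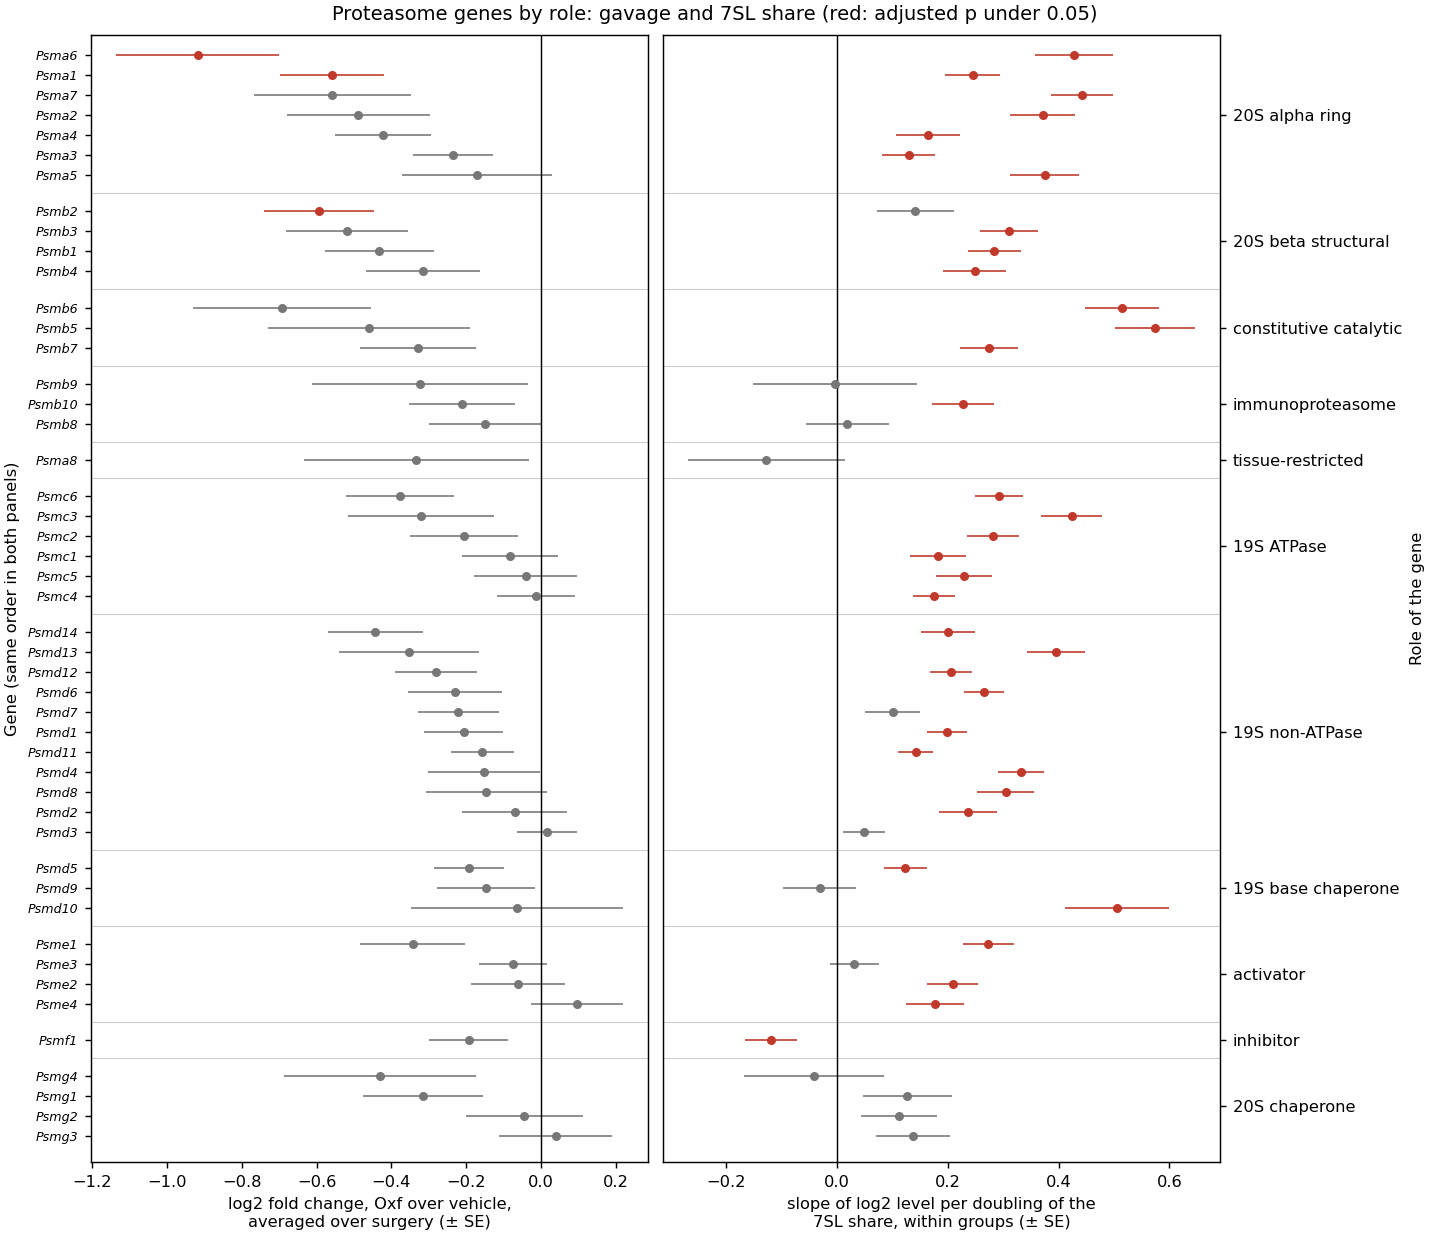
Left, log2 fold change of Oxf over vehicle averaged over surgery for the 47 genes tested, with its SE, and right, slope of the log2 level per doubling of the 7SL share within groups, with its SE. Genes stand in the same order in both panels, grouped by role, and red marks an adjusted p under 0.05. On the left the 3 red points are Psma6, Psma1 and Psmb2, and on the right 35 genes are red, among them all 7 alpha ring genes and all 6 ATPases but of the immunoproteasome genes Psmb10 alone.

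The gavage result moved with other properties of the libraries. The mean 7SL share was 9.78 ± 5.24% in sham-vehicle (SD, n = 10), 13.6 ± 6.80% in CKD-vehicle (n = 6), 4.14 ± 3.52% in sham-Oxf (n = 5) and 8.81 ± 6.26% in CKD-Oxf hearts (n = 7). With the log2 share as a covariate, 0 of the 47 proteasome genes were called for Oxf averaged over surgery, 27 were below 0 and the median log2 fold change was -0.04, against -0.07 over all genes. The circadian clock genes moved as well, with 4 of 4 genes around Arntl lower and 7 of 10 genes around Dbp and Per1 higher with Oxf, and with the clock score as a covariate 0 proteasome genes were called and the median was -0.09. Of 6 cardiomyocyte markers 1 was called, Tnni3 (cardiac troponin I) at -0.72 (SE 0.19, edgeR adjusted p = 0.0447). The 6 summed to 16776 to 31418 CPM after sham surgery and medium and to 28465 to 42786 after nephrectomy and medium. After Oxf the sums were 18751 to 26715 CPM with sham surgery and 22824 to 39097 with nephrectomy. None of the 6 was at 0 in any library, and the part of this difference in the result was not tested. Of 3 skeletal muscle markers tested 0 were called, with 2 lower at an unadjusted p under 0.05 and a median of -2.67, and of 4 atrial markers 0 were called, with a median of -0.79. The count of 3 also rested on single libraries, being 0 without CKD-vehicle replicate 2 or 3, sham-Oxf replicate 5 or CKD-Oxf replicate 3 or 6, 8 without CKD-vehicle replicate 5 and 14 without CKD-Oxf replicate 4.

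Within groups, the level of most proteasome genes rose with the 7SL share of the library. This test, the slope of each gene on the log2 share with the 4 group means kept, was chosen after seeing the data. It called 35 of the 47 genes, where 37.7% of all genes tested were called in either direction. Higher levels at a higher share were called in 34 of 47 proteasome genes, against 16.7% of all genes tested, and the median slope was 0.21 log2 units per doubling of the share, against -0.05 over all genes. The one gene that fell was Psmf1 (slope -0.12, SE 0.05, edgeR adjusted p = 0.048), which encodes an inhibitor of the core particle.

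The called genes are given by role, and differences between roles were not tested. All 7 alpha ring genes were called higher, 3 of 4 structural beta genes, all 3 constitutive catalytic genes, all 6 ATPases, 9 of 11 non-ATPase subunits, 2 of 3 base chaperones, 3 of 4 activators and none of 4 core chaperones. The steepest slopes were those of Psmb5 at 0.57 (SE 0.07, edgeR adjusted p = 2.08e-06), Psmb6 at 0.52 (SE 0.07, edgeR adjusted p = 3.1e-06) and the base chaperone Psmd10 at 0.51 (SE 0.09, edgeR adjusted p = 0.000178). Of the immunoproteasome genes only Psmb10 was called, with a slope of 0.23 (SE 0.06, edgeR adjusted p = 0.00269), while Psmb8 had 0.02 (SE 0.08, edgeR adjusted p = 0.867) and Psmb9 -0.00 (SE 0.15, edgeR adjusted p = 0.987). Leaving out 1 library at a time gave counts of 32 to 38. The slope on the clock score within groups, a second test chosen after seeing the data, called 0 of 47 genes in edgeR and 1 (Psmd8) at an unadjusted p under 0.05, with 0.144% of all genes called.

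**Figure D4:**
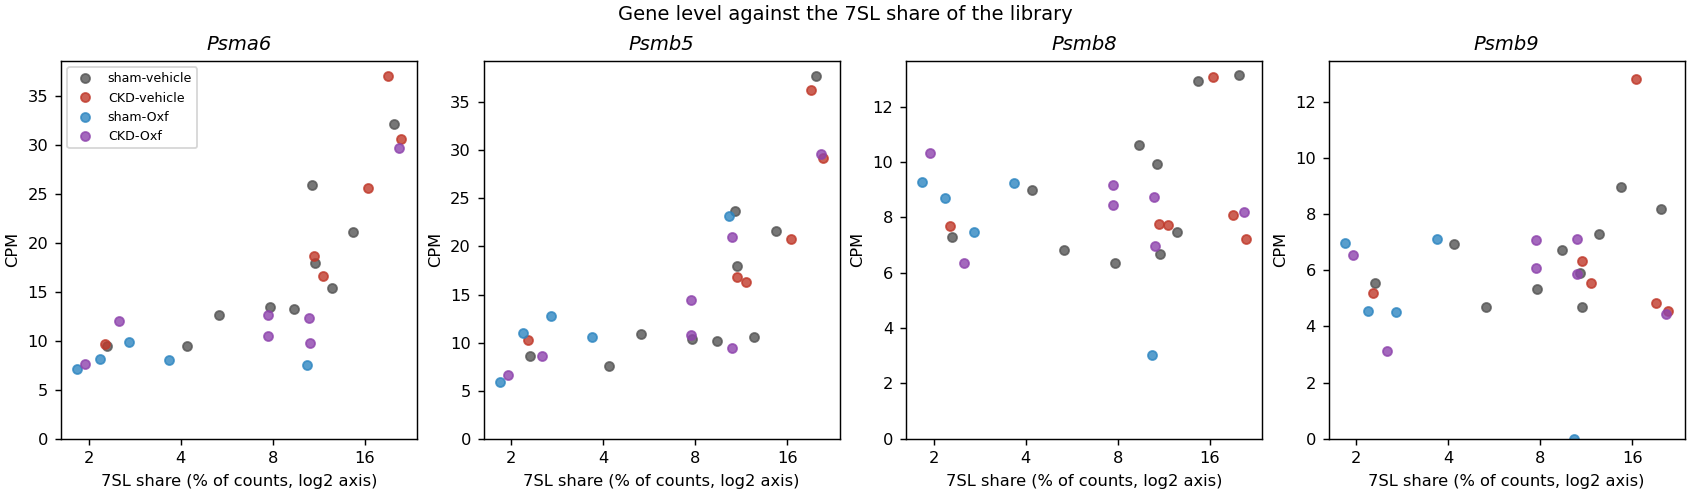
Level in CPM of Psma6, Psmb5, Psmb8 and Psmb9 against the share of 7SL RNA in the counts of the library (percent, log2 axis), 1 point per library, coloured by group. Psma6 and Psmb5 climb with the share to the libraries near 20%, whereas Psmb8 and Psmb9 have slopes of 0.02 and -0.00 and each has a low point in sham-Oxf replicate 1, at 3.04 CPM and at 0.

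Promoter sequences were read for the genes that these results turn on. RefSeq windows (GRCm38.p6) of the 250 bases before a transcription start were found for 40 of the 48 genes, 43 windows in all, and searched on both strands. The motifs were the antioxidant response element TGACNNNGC, which NFE2L1, the transcription factor of the proteasome bounce-back response, can bind, and the CCAAT box, which NF-Y binds. The windows of Psma6 and Psma1, which fell with Oxf, and of Psmb5 and Psmb6, which had the steepest slopes on the 7SL share, are printed 5′ to 3′ on the strand of the gene, with matched motifs in capitals (ATTGG is the CCAAT box on the other strand).
Psma6, chr12:55383972-55384221, plus strand: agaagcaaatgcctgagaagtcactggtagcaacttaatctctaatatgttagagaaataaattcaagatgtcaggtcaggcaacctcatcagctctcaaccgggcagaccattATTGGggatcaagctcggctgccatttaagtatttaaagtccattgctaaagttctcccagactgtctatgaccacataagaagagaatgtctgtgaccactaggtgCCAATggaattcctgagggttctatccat
Psma1, chr7:114276117-114276366, minus strand: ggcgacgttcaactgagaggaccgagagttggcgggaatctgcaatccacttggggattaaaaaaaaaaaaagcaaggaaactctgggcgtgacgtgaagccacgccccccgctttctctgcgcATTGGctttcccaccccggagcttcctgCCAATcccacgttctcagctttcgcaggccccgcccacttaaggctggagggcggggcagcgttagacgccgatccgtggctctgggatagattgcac
Psmb5, chr14:54617996-54618245, minus strand: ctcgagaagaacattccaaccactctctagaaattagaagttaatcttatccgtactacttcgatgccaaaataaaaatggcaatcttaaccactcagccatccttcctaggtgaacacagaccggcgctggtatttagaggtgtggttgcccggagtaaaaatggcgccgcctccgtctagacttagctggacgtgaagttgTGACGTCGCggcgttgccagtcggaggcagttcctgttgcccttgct
Psmb6, chr11:70525107-70525356, plus strand: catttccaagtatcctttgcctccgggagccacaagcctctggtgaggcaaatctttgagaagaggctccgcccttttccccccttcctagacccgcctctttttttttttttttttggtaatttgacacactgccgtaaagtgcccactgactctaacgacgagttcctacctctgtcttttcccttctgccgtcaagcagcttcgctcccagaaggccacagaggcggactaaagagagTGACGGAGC

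Psma6 and Psma1 each had a pair of CCAAT boxes in the windows printed, and a second start of Psma6 had none. The third gene called lower with Oxf, Psmb2, was not matched to a window. Both catalytic genes had 1 antioxidant response element, at -47 to -39 from the start in Psmb5 and at -9 to -1 in Psmb6. Over all 43 windows the element was found in 5, or 11.6%, against 10.2% of the 32851 windows of all genes, and the CCAAT box in 14, or 32.6%, against 33.8%. The other genes with the element were Psmc6, Psmd12 and Psmd9. Of the interferon motifs, the interferon-stimulated response element was found in 3 windows (6.98% against 2.98%), none of them of an immunoproteasome gene. TTCNNNGAA was found in 2 (4.65% against 7.02%), 1 of which was that of Psmb8, with the letters TTCCCAGAA. The windows of Psmb8 (chr17:34197945-34198194) and Psmb9 (chr17:34187331-34187580) lie wholly inside the annotated genes. The bases before the annotated starts of these genes were therefore not searched. The E-box CACGTG of the clock factors was found in 4 windows (9.30% against 6.02%) and the D-box TTATGNAA in 0 (against 3.07%). A match describes letters and does not show that a factor binds.

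The immunoproteasome genes did not pass the threshold in any group comparison. Psmb8 lies at chr17:34197721-34201454 and had a lowest, median and highest level of 6.33, 8.23 and 13.1 CPM in sham-vehicle, 7.22, 7.75 and 13.1 in CKD-vehicle and 6.35, 8.44 and 10.3 in CKD-Oxf hearts, and 3.04, 9.28, 8.72, 7.46 and 9.24 CPM in sham-Oxf hearts. Psmb9 lies beside it at chr17:34181987-34187764 and had 4.68, 6.32 and 8.98 CPM in sham-vehicle, 4.55, 5.36 and 12.8 in CKD-vehicle and 3.13, 6.07 and 7.11 in CKD-Oxf hearts, and 0, 6.96, 4.54, 4.51 and 7.11 CPM in sham-Oxf hearts. The 0 is that of sham-Oxf replicate 1, where a count of 0 allows a level of up to 0.142 CPM (3 counts, counting error only). Both genes were highest in CKD-vehicle replicate 4 among CKD-vehicle hearts, and the other 5 hearts of that group lay close together.

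Psmb10 had 8.06, 10.9 and 18.4 CPM in sham-vehicle, 9.84, 12.6 and 17.6 in CKD-vehicle and 7.62, 12.9 and 16.5 in CKD-Oxf hearts, and 7.97, 8.44, 11.7, 10.78 and 10.54 CPM in sham-Oxf hearts. All its groups overlapped. With Oxf averaged over surgery the log2 fold change was -0.15 for Psmb8 (SE 0.15), -0.32 for Psmb9 (SE 0.29) and -0.21 for Psmb10 (SE 0.14). The edgeR adjusted p-values were 0.6, 0.542 and 0.386. These fold changes include sham-Oxf replicate 1, which had the lowest level of its group for all 3 genes. In CKD-vehicle against sham-vehicle hearts the 3 values were -0.07 (SE 0.20), 0.02 (SE 0.38) and 0.16 (SE 0.19).

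Other genes of the interferon and antigen presentation pathway did not pass either. Of 16 listed genes 15 were tested and 0 were called for Oxf averaged over surgery in edgeR, with 3 at an unadjusted p under 0.05 (Ifit3 higher, B2m and Gbp2 lower), against 23% of all genes, and a median log2 fold change of -0.05. The 10 leukocyte markers were all tested with 0 called and 2 at an unadjusted p under 0.05. Their sum was 126 to 285 CPM in sham-vehicle and 145 to 248 in CKD-vehicle hearts, while sham-Oxf hearts had 111 to 476 CPM and CKD-Oxf hearts 110 to 434 CPM. In sham-Oxf replicate 1, where Psmb9 was at 0, 5 of the 10 (Cd68, Itgam, Tyrobp, Cd3e and Cd79a) were at 0 too, and in no other library was any of them at 0. The part of these markers in the immunoproteasome levels was not tested.

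Each immunoproteasome subunit was set against the constitutive subunit whose place it takes. The log2 ratio of Psmb8 to Psmb5 was -0.67 ± 0.60 in sham-vehicle (SD, n = 10), -1.24 ± 0.71 in CKD-vehicle (n = 6), -0.72 ± 1.33 in sham-Oxf (n = 5) and -0.62 ± 0.79 in CKD-Oxf hearts (n = 7). For Psmb9 to Psmb6 the means were -2.05 ± 0.64, -2.51 ± 0.91, -3.01 ± 3.35 and -1.89 ± 0.87, and for Psmb10 to Psmb7 they were -0.19 ± 0.17, -0.17 ± 0.29, -0.14 ± 0.46 and 0.01 ± 0.39. Per kilobase the first 2 ratios stayed below 0 in all 4 group means (-3.15 to -2.53 and -3.98 to -2.86) and the third above it (0.82 to 1.02). These values depend on the joined exon lengths. The shift of the third ratio came from lengths of 1705 bases for Psmb10 and 3421 for Psmb7. None of the 12 differences between groups passed an exact two-sided permutation test. The smallest p was 0.109 (adjusted over the 12 tests 0.74), for Psmb8 to Psmb5 in CKD-vehicle minus sham-vehicle hearts at -0.56, where 2 of 6 CKD-vehicle hearts were above the sham-vehicle median.

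Sham-Oxf replicate 1 decided the sign of several of these ratios. Its log2 ratio of Psmb9 to Psmb6, -8.89, is set by the prior count added to a count of 0. Without it, sham-Oxf minus sham-vehicle was 0.51 for Psmb8 to Psmb5 and 0.50 for Psmb9 to Psmb6, where the values with it were -0.04 and -0.97, and CKD-Oxf minus sham-Oxf was -0.45, -0.35 and -0.03 for the 3 ratios, where the values with it were 0.10, 1.12 and 0.16.

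**Figure D5:**
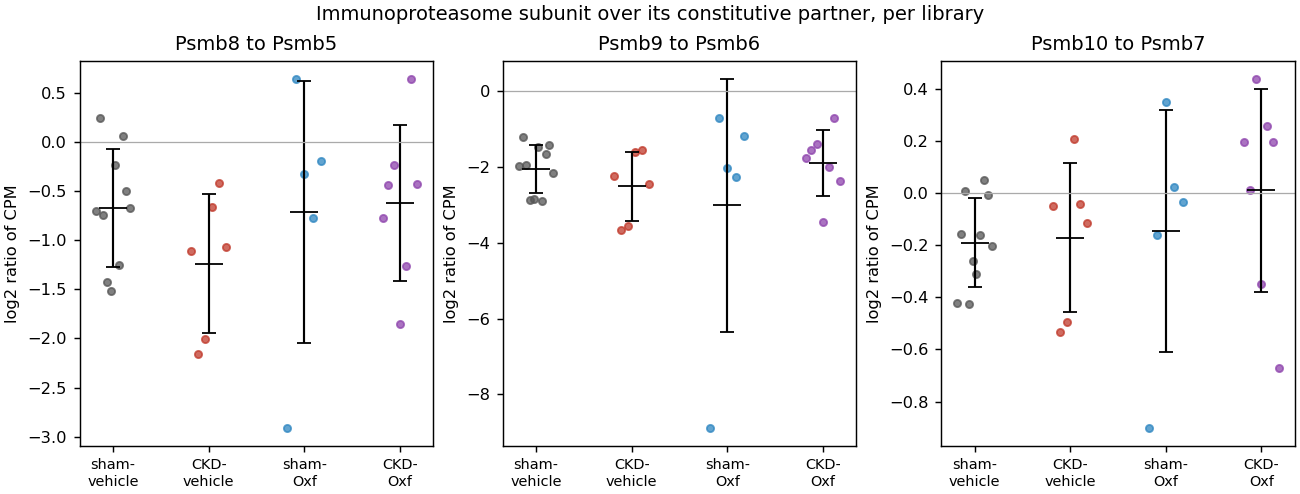
Log2 ratio of the CPM of each immunoproteasome subunit to that of its constitutive partner, 1 point per library, with the group mean and SD as a line and bars. The groups overlap in all 3 panels, and 1 sham-Oxf library lies lowest in each, at -8.89 for Psmb9 to Psmb6.

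Across the 28 hearts, with group means removed, 6 correlations of log2 CPM were computed, 3 between immunoproteasome genes and 3 between each of them and its constitutive partner. Psmb8 and Psmb9 had a Pearson r of 0.812 (permutation p = 1e-05, the smallest that 100000 permutations can give, adjusted 6e-05) and a Spearman rho of 0.836 (permutation p = 1e-05, adjusted 6e-05), and r was 0.699 without the 2 hearts farthest from the median of Psmb8. Psmb8 and Psmb10 had r = 0.601 (permutation p = 0.00019, adjusted 0.00057) and rho = 0.61 (permutation p = 0.00073, adjusted 0.00146), and r was 0.611 without the 2 farthest hearts. Psmb9 and Psmb10 had r = 0.299 (permutation p = 0.00481, adjusted 0.00721) and rho = 0.413 (permutation p = 0.0147, adjusted 0.022), with r = 0.333 without the 2 farthest hearts. Without sham-Oxf replicate 1 the first pair had r = 0.788 (adjusted permutation p = 0.00012), the second r = 0.653 (adjusted permutation p = 0.0017) and the third r = 0.421 (adjusted permutation p = 0.0501).

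With the constitutive partner, Psmb8 and Psmb5 had r = 0.0094 (permutation p = 0.963, adjusted 0.963) and rho = 0.131 (permutation p = 0.524, adjusted 0.628), and Psmb9 and Psmb6 had r = -0.142 (permutation p = 0.336, adjusted 0.403) and rho = -0.0224 (permutation p = 0.902, adjusted 0.902). Without the 2 farthest hearts these r were -0.146 and -0.176, and without sham-Oxf replicate 1 they were 0.308 and -0.0191. Psmb10 and Psmb7 did vary together, with r = 0.662 (permutation p = 0.00045, adjusted 0.0009) and rho = 0.675 (permutation p = 0.00066, adjusted 0.00146), and r = 0.544 without the 2 farthest hearts. In sham-vehicle hearts alone (n = 10) the 6 r were 0.836, 0.84, 0.619, 0.614, 0.288 and 0.911, in the order given. The difference between these correlations was not tested, and all genes of a library share its depth and its 7SL share.

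No proteasome gene was called for nephrectomy without Oxf. In CKD-vehicle against sham-vehicle hearts edgeR called 0 of 47 genes, with 0.00824% of all genes called, and 1 was at an unadjusted p under 0.05, against 4.46% of all genes. DESeq2 and limma voom called 0 as well. The gene at that unadjusted p was Psme4, with a log2 fold change of 0.38 (SE 0.16, edgeR adjusted p = 0.955). Of the 47 fold changes 45 were above 0 with a median of 0.18, where the median of all genes was -0.03. The 14 constitutive core genes had a median of 0.28 and the 17 subunits of the 19S particle one of 0.18.

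Oxf in CKD hearts gave 0 called of 47 in CKD-Oxf against CKD-vehicle hearts in edgeR, where 0.033% of all genes were called. DESeq2 called 0 of the 47 as well, and limma voom with sample weights called 17. At an unadjusted p under 0.05 in edgeR, 8 genes were lower, against 6.2% of all genes. The smallest p was that of Psma1 at -0.68 (SE 0.20, edgeR adjusted p = 0.197). The fold changes had a median of -0.28, 44 of 47 were below 0, and the 14 constitutive core genes had a median of -0.53. Without CKD-Oxf replicate 4 edgeR called 7 of the 47. The share of all genes called in that fit and in limma voom is not given here.

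Oxf in sham hearts gave 0 called of 47 in sham-Oxf against sham-vehicle hearts in edgeR, where 0% of all genes were called. DESeq2 and limma voom called 0 of the 47 as well. In edgeR 7 were lower at an unadjusted p under 0.05, against 5.98% of all genes. Psma6 had the smallest p at -1.07 (SE 0.31, edgeR adjusted p = 0.193). The median was -0.25, with 39 of 47 below 0, and that of the 14 constitutive core genes was -0.41. With the log2 7SL share as a covariate the median of the 47 genes turned to 0.08. This comparison and that of CKD-vehicle hearts share the sham-vehicle libraries, and the one before shares the CKD-vehicle libraries with the latter.

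Among colonized mice, CKD-Oxf against sham-Oxf hearts, edgeR called 0 of 47 genes (0% of all genes called). DESeq2 and limma voom also called 0 of the 47. In edgeR 3 were at an unadjusted p under 0.05 (2 higher and 1 lower), against 8.23% of all genes. Psma6 had the smallest p at 0.73 (SE 0.33, edgeR adjusted p = 0.55). With nephrectomy averaged over both gavages edgeR called 0 of 47 (0% of all genes called), and DESeq2 and limma voom also called 0 of the 47. In edgeR 4 were higher at an unadjusted p under 0.05, against 5.17% of all genes. Psma6 was again first at 0.58 (SE 0.21, edgeR adjusted p = 0.342). The 14 constitutive core genes had a median of 0.25 there, and all 14 were above 0. With the log2 7SL share as a covariate the median of the 47 genes turned from 0.14 to -0.10 in CKD-Oxf against sham-Oxf hearts and was 0.01 for nephrectomy averaged.

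No proteasome gene was called for a different response to Oxf in CKD and in sham hearts. In edgeR the interaction called 0 of 47 (0% of all genes called), with none at an unadjusted p under 0.05. DESeq2 and limma voom called 0 of the 47 as well. The smallest p was that of Psmg2, a chaperone of the alpha ring, at -0.53 (SE 0.31, edgeR adjusted p = 1). Psmg2 had 3.02 to 3.76 CPM in sham-vehicle, 2.67 to 4.26 in CKD-vehicle and 1.99 to 3.63 in CKD-Oxf hearts, and 8.63, 3.04, 2.567, 2.702 and 2.603 CPM in sham-Oxf hearts. The 8.63 is sham-Oxf replicate 1, and without this library the interaction of Psmg2 was -0.02.

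In the test of any difference among the 4 groups edgeR called 0 of 47 (0.148% of all genes called), with 8 at an unadjusted p under 0.05, against 16.1% of all genes, and Psma6 first (p = 0.00117, adjusted p = 0.11), while DESeq2 called 4 and limma voom 17. Within sham-vehicle hearts the slope on the mouse number of the labels called 0 of 46 genes (0.0327% of all genes called), none at an unadjusted p under 0.05, and DESeq2 and limma voom called 0. Psme4 had the smallest p, with a slope of 0.05 per mouse number (SE 0.03, edgeR adjusted p = 1).

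The other genes of the ubiquitin and proteasome system, fixed as a list with earlier results of these data known, leaned to lower levels with Oxf. Of 29 found in the table and tested, 1 was called with Oxf averaged over surgery, the ubiquitin and ribosomal fusion gene Rps27a at -0.96 (SE 0.22, edgeR adjusted p = 0.0255). It had 23.6, 43.5 and 99.6 CPM in sham-vehicle, 30.9, 71.6 and 118 in CKD-vehicle, 18.1, 22.3 and 33.3 in sham-Oxf hearts and 23.2, 34.6 and 83.5 CPM in CKD-Oxf hearts (lowest, median, highest). At an unadjusted p under 0.05, 12 of the 29 were lower and 2 higher, with a median of -0.20, where 11.5% of all genes were lower and 11.5% higher, and 2.81% were called at the adjusted threshold. Nfe2l1, the factor that raises proteasome genes when the proteasome is inhibited, had a log2 fold change of 0.00 (SE 0.11, edgeR adjusted p = 0.994), with 130 to 199 and 155 to 231 CPM in sham-vehicle and CKD-vehicle hearts, and 125 to 215 and 127 to 259 CPM in sham-Oxf and CKD-Oxf hearts.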

How the data were processed

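Per the labels, total RNA of ventricular myocardium was extracted with the RNeasy Mini Kit and sequenced on an Illumina instrument. The authors deposited 1 table of raw gene counts, whole numbers that were not normalized. Per the submitters' processing notes the tools were FastQC 0.11.7, MultiQC 1.9, STAR 2.6.1d and Subread featureCounts 1.6.3, with build mm10. The annotation, the use of strand and the treatment of reads with several matches are not given in the sources used here. Every gene row had a name, and the number of columns that match no sample is 0. Groups come from the labels, and replicate numbers only name the libraries of a group in record order.

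The proteasome genes were taken by symbol, without use of a measured value. That rule, the roles and the gene lists were fixed with earlier results of these data known. After TMM scaling, the deposited counts entered edgeR 4.0.16 under R 4.3.3 (robust quasi-likelihood fit of 4 group means over all 28 libraries, filterByExpr with a minimum count of 10, 24273 genes). The Benjamini-Hochberg adjustment ran over all genes tested, with a threshold of 0.05. Log2 CPM used a prior count of 2. The SE of a fold change is its size divided by the square root of F. The averaged contrasts weight both surgeries or both gavages equally. The fit was tested on simulated data. Ratios and their permutation tests were computed in R, and correlations in Python 3.11.15 with SciPy 1.17.1. The 7SL share is the sum of Rn7s1 and Rn7s2. The clock score of a library is the mean log2 level of 10 genes around Dbp and Per1 minus that of 4 genes around Arntl, each against the sham-vehicle mean. Exon lengths and gene positions are from GENCODE M21 (GRCm38).

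Named by rule were Psmb5 to Psmb10, Psme1 and Psme2, genes past the threshold in one of 9 tests, and, for a test that none passed, the gene of lowest p. Other genes named were chosen after their values were seen, mostly as the ends of the range of their role. Alternatives were DESeq2 1.42.0, limma 3.58.1 (voom, weighting samples), scaling by the size factors of DESeq2 or by upper quartiles, testing without a filter or only genes with 10 counts or more throughout, the clock score or log2 7SL share as covariate, a fit of the compared groups only, a prior count of 0.5 for ratios, and each library left out.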

Additional observations from a re-analysis of the deposited data

Results flagged for a closer look

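Dixon's criterion at 95% sets the gap between an extreme library and the next one against the range of its group. It was applied to 26 measures in 4 groups, or 104 comparisons. The limit was passed in 11, where chance gives about 1 in 20, or 5.2. The measures share libraries and genes, so the comparisons are not independent. In CKD-vehicle replicate 4 the gap share was 0.813 for Psmb8 (log2 CPM 3.72, the next library 3.02), 0.682 for Psmb9 (3.68, next 2.67) and 0.77 for the mean of the 3 immunoproteasome genes. In sham-Oxf replicate 1, the shallowest library, it was 0.804 for low Psmb8, 0.909 for low Psmb9, 0.812 for the low log2 ratio of Psmb9 to Psmb6, 0.899 for the low immunoproteasome mean, 0.719 for the low mean of the core chaperones and 0.861 for high Psmg2 (3.12, next 1.63). In CKD-Oxf replicate 4, which had the highest 7SL share of its group, it was 0.628 for high Psma6 (4.89, next 3.67) and 0.598 for the high mean of the 19S base chaperones. The causes were not tested.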

How the results depend on the processing

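The number of proteasome genes called for Oxf averaged over surgery was 3 and moved to 8 with DESeq2, 22 with limma voom, 1 with no filter on low counts, 7 with at least 10 counts in every library and 0 with the clock score or the log2 7SL share as covariate. It was 4 with DESeq2 size factors and with upper quartile scaling, and 0 to 14 with a library left out. For CKD-Oxf minus CKD-vehicle it went from 0 to 17 with limma voom and lay between 0 and 7 with a library left out. For any difference among the groups it went from 0 to 4 with DESeq2 and 17 with limma voom, and lay between 0 and 5. Why the tools differ was not tested. The shares of all genes given with the group comparisons are those of the main edgeR fit. The counts of the other settings therefore stand without a share of all genes beside them.

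With the clock score regressed out, 3 ratio differences changed sign: Psmb8 to Psmb5 in CKD-Oxf minus CKD-vehicle to -0.73, Psmb9 to Psmb6 in the same comparison to -0.68 and Psmb10 to Psmb7 in sham-Oxf minus sham-vehicle to -0.24. The cause was not tested. The slope of Psme4 on mouse number became -0.12 with the clock score as covariate. In sham-vehicle hearts alone, r of Psmb9 and Psmb10 was 0.619 (adjusted permutation p = 0.0745) and that of Psmb6 and Psmb9 became 0.288.

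With a library left out, the ratio differences that changed sign ranged, for Psmb8 to Psmb5, from -0.38 to 0.51 in sham-Oxf minus sham-vehicle and from -0.45 to 0.43 in CKD-Oxf minus sham-Oxf. For Psmb9 to Psmb6 they ranged from -1.54 to 0.50 and from -0.35 to 1.70, and for Psmb10 to Psmb7 from -0.0781 to 0.24 and from -0.0345 to 0.28, and from -0.0569 to 0.0914 in CKD-vehicle minus sham-vehicle. The r of Psmb9 and Psmb10 was 0.421 without sham-Oxf replicate 1.

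No paired analysis was possible because each mouse number occurs in 1 library and replicate numbers only name libraries. Of 850 recomputed values, 761 were classed as the same. For fold changes, ratios and correlations this meant the same direction and side of the threshold. For a count of genes called it allowed small changes, such as 32 to 38 against 35 for the slope on the 7SL share. The count for Oxf averaged over surgery was classed as the same in 2 of 8 alternative settings. It was so classed in 14 of 28 fits without 1 library. Groups of 5 to 10 hearts and the low counts of Psma8, Psmg4 and Psmd10 limit what these tests detect.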
